A study of Drosophila melanogaster with 6 samples.

Results

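Muscle and sarcomere genes were examined in adult Drosophila hindguts, whose epithelium is wrapped in visceral muscle. The set was a named list of 35 genes for the sarcomere, the troponin-tropomyosin switch, the Z-disc and muscle calcium handling, and all 35 were found among the 17617 genes of the series. The question asked of them was whether all fall by 1 common factor when oncogenic Ras is switched on with a hindgut enterocyte driver.

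RasV12 hindguts carried UAS-RasV12 together with byn-Gal4, tub-Gal80ts and UAS-gfp, and control hindguts carried byn-Gal4, tub-Gal80ts and UAS-gfp without it, so both genotypes had the driver, its temperature-sensitive repressor and the fluorescent reporter. Flies were reared at 18°C and moved to 29°C for 7 days, which inactivates the Gal80 repressor. The paper used byn-Gal4 to drive expression in hindgut enterocytes, and whether the driver also acts in the muscle was not examined here. The RNA came from hindguts with no stated separation of tissues, so reads of a gene cannot be assigned to muscle or epithelium. For RT-qPCR the paper states that the rectum was left out, and for sequencing it does not say. There were 3 libraries per genotype, each of RNA pooled from 100 hindguts of females and read from transcript ends. Labels do not say whether the 3 libraries came from separate crosses, so p-values measure the spread between these libraries, which may in part be technical.

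In striated and visceral muscle of insects, myosin thick filaments slide along actin thin filaments. Calcium released from the sarcoplasmic reticulum binds troponin C, and troponin and tropomyosin then move on the thin filament and let myosin bind. Thin filaments are anchored by alpha-actinin at Z-discs or dense bodies, and giant titin-like proteins tie the thick filaments to them. In the hindgut, circular muscle of this kind contracts to move waste outwards.

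Values are normalised counts: reads per gene multiplied by 1 factor per library and rounded by the study's authors. The 6 libraries summed to between 932389 and 1031380 normalised counts, and the factors correspond to between 988982 and 1402435 reads in RasV12 libraries, against between 686080 and 1048807 reads in control libraries. A gene was tested with limma on log2(value + 1) if any library exceeded 9 normalised counts, and was called at an adjusted p under 0.05 over all 7155 tested genes. Fold changes are on that scale, which understates the change of low genes. Ras85D, the gene that the transgene derives from, was at 85, 96 and 105 in RasV12 libraries and 55, 48 and 54 in control libraries.

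Of the 35 genes, 31 were tested. In RasV12 hindguts 19 fell and 12 were not called. None was called higher with limma, 0 were higher at an unadjusted p under 0.05, and 0 were called higher with limma-voom. Over all tested genes 7.70% were called lower and 9.04% higher. The median log2 fold change of the 31 genes was -1.03, beside 0.02 over all tested genes, and 26 of the 31 had a negative value. In 20 of the 31 every RasV12 library lay below every control library, which held for 15.3% of all tested genes. The 19 genes that fell were at between 20.4% and 59.5% of their control mean. Without RasV12 replicate 2 the number that fell was 12, and without a variance trend it was 10. Counts in bulk tissue cannot tell fewer muscle cells, less RNA per muscle cell and a larger share of RNA from other cells apart. A fall of muscle genes is already in the paper, which lists Mhc, Mlc1, Mlc2, wupA, up, Actn, Tm2 and Zasp52 as lower. It called them at an unadjusted p under 0.05, and its false discovery rates for Mhc, Mlc2, wupA and Zasp52 were above 0.05. The paper also reports that RasV12 hindguts were longer and wider, with larger enterocytes. The part of that growth in the lower values was not tested.

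**Figure D1:**
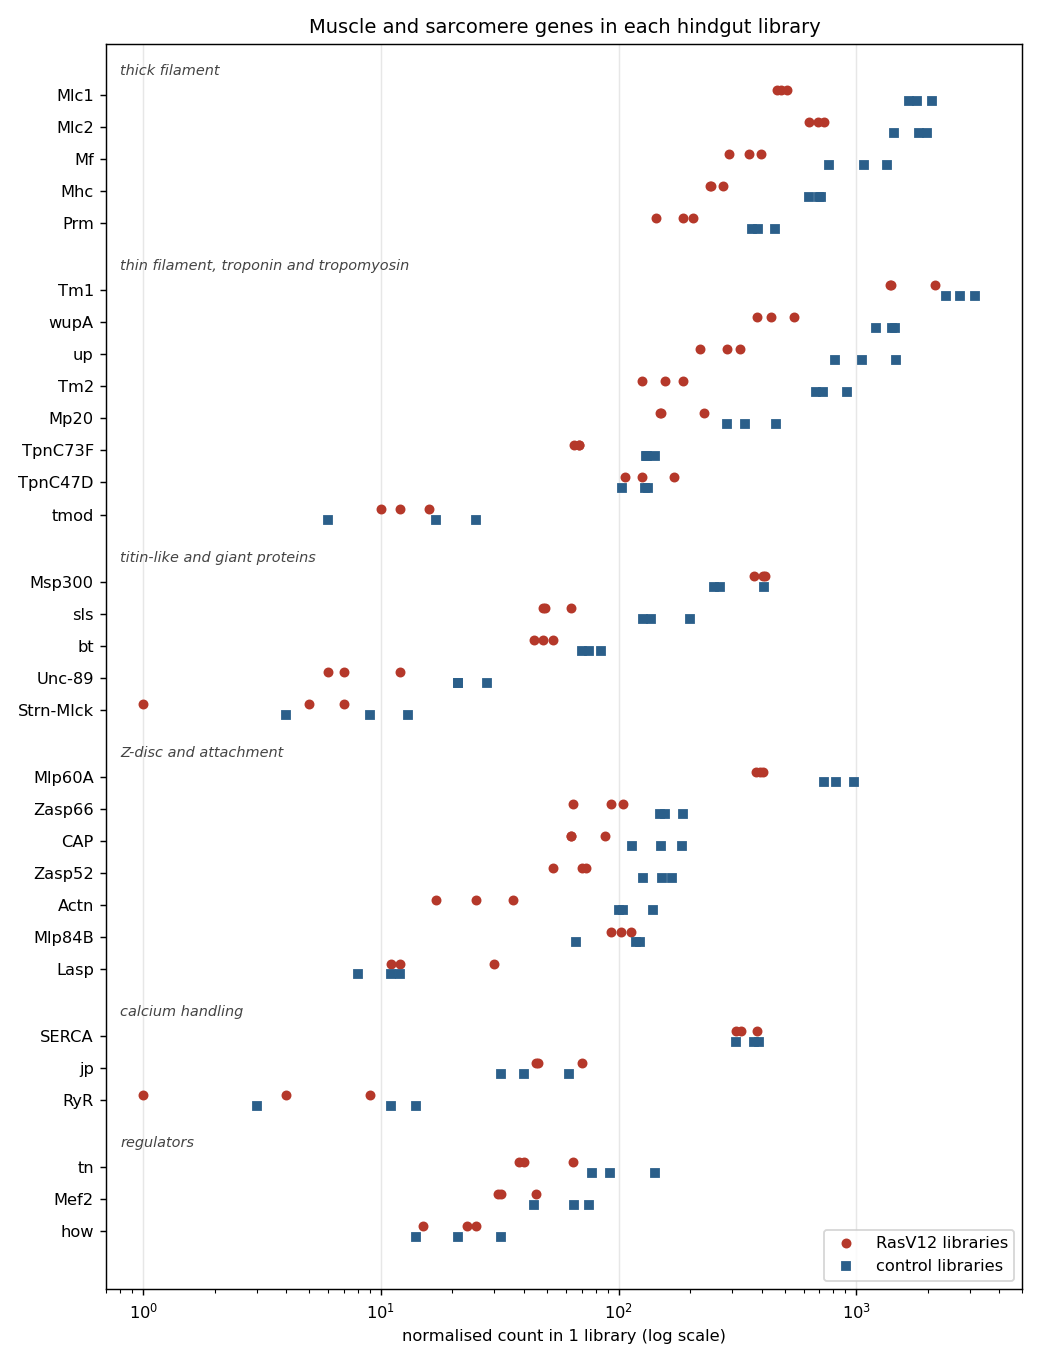
Normalised counts (log scale) of the 31 tested muscle genes in each RasV12 library (red circles) and each control library (blue squares), grouped by role. All 5 thick filament genes have RasV12 libraries below control libraries, while the 3 calcium handling genes overlap.

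All 5 tested genes of the thick filament fell, and their log2 fold changes had a median of -1.42. Mhc (FBgn0264695), the only gene for muscle myosin heavy chain, had 242, 245 and 275 normalised counts in RasV12 libraries and 696, 632 and 711 in control libraries. The groups were far apart, and the change was -1.42 ± 0.20 on the log2 scale (SE, n = 3 each, adjusted p = 0.00032).

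Mlc1 (FBgn0002772), the essential light chain of muscle myosin, had 465, 484 and 511 in RasV12 libraries and 1806, 2072 and 1661 in control libraries. Its change was -1.92 ± 0.19 (SE, adjusted p = 1.74e-05), and its RasV12 mean was 26.4% of the control mean. The regulatory light chain gene Mlc2 (FBgn0002773) had 690, 732 and 633 in RasV12 libraries and 1837, 1441 and 1982 in control libraries, a change of -1.34 ± 0.20 (SE, adjusted p = 0.000446). Both light chains thus fell without overlap of the genotypes.

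Prm, which encodes the paramyosin of the thick filament core, had 187, 206 and 143 in RasV12 libraries and 365, 384 and 454 in control libraries (-1.17 ± 0.23, SE, adjusted p = 0.00338). Mf, for the thick filament protein myofilin, had 398, 352 and 292 in RasV12 libraries and 770, 1076 and 1344 in control libraries (-1.59 ± 0.24, SE, adjusted p = 0.000522). Control libraries spread more widely for Mf than RasV12 libraries did. The sixth gene, fln, encodes flightin of the indirect flight muscle and was at 0 in every library, which allows up to 3 reads in each.

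Thin filament genes were less even: 6 of 8 tested genes fell, and TpnC47D and tmod were not called. The troponin I gene wupA (FBgn0283471) had 439, 547 and 383 in RasV12 libraries and 1210, 1454 and 1413 in control libraries, a change of -1.58 ± 0.21 (SE, adjusted p = 0.00018). The troponin T gene up (FBgn0004169) had 324, 287 and 220 in RasV12 libraries and 812, 1056 and 1466 in control libraries, a change of -1.98 ± 0.25 (SE, adjusted p = 0.000137). For both genes the RasV12 libraries lay well below all controls.

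The 2 tropomyosin genes lie next to each other on chromosome arm 3R, Tm1 at 15278220 to 15308779 and Tm2 at 15310193 to 15315197 (dm6 coordinates, plus strand for both), with 1413 bases between them. Tm2 (FBgn0004117) had 157, 187 and 126 in RasV12 libraries and 721, 675 and 913 in control libraries, and its change of -2.30 ± 0.23 (SE, adjusted p = 2e-05) was the largest fall among the 31 genes. Tm1 (FBgn0003721), which also makes cytoskeletal tropomyosins outside muscle, had 2152, 1384 and 1400 in RasV12 libraries and 3168, 2728 and 2394 in control libraries. The groups did not overlap, but Tm1 fell by only 0.77 ± 0.22 on the log2 scale (SE, adjusted p = 0.0279), and its adjusted p was between 0.0697 and 0.134 without RasV12 replicate 2, RasV12 replicate 3, control replicate 1 or control replicate 2.

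Troponin C, the calcium sensor, has 4 genes in the set, of which 2 were tested and 1 fell. TpnC73F had 68, 68 and 65 in RasV12 libraries and 131, 132 and 142 in control libraries, so replicates were tight and the RasV12 mean was 49.6% of control (-0.999 ± 0.25, SE, adjusted p = 0.0143). Without RasV12 replicate 2 its adjusted p was 0.0532. TpnC47D had 125, 106 and 171 in RasV12 libraries and 129, 133 and 103 in control libraries, and the groups overlapped.

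The log2 change of TpnC47D was 0.12 (95% interval -0.45 to 0.69, adjusted p = 0.81). TpnC41C was at 0 in all libraries, and TpnC4 had 2, 3 and 1 in RasV12 libraries and 0 in each control library, at or under the floor of 3 reads, so no fold is given. Both are troponin C genes known from flight muscle.

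Mp20, a calponin-like muscle protein gene, had 228, 149 and 151 in RasV12 libraries and 285, 339 and 459 in control libraries (-1.03 ± 0.26, SE, adjusted p = 0.0157). Its adjusted p was 0.0803 without RasV12 replicate 2 and 0.0586 without RasV12 replicate 3. The gene for tropomodulin, tmod, which caps the pointed ends of thin filaments, had 10, 16 and 12 in RasV12 libraries and 6, 25 and 17 in control libraries. At these levels the interval of its log2 change ran from -1.30 to 1.02.

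Among the titin-like and giant proteins 2 of 5 genes fell. The titin-like gene sls had 48, 49 and 63 in RasV12 libraries and 200, 127 and 137 in control libraries (-1.50 ± 0.28, SE, adjusted p = 0.0025). Projectin, encoded by bt, had 53, 44 and 48 in RasV12 libraries and 84, 70 and 75 in control libraries. The bt groups did not overlap, yet the change of -0.65 (95% interval -1.25 to -0.05) had an adjusted p of 0.135.

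The obscurin gene, listed as Unc-89 and annotated today as Obsc (FBgn0053519), had 6, 12 and 7 in RasV12 libraries and 21, 21 and 28 in control libraries. Its change of -1.42 ± 0.46 (SE, adjusted p = 0.0474) missed the threshold whichever of the 6 libraries was left out, with an adjusted p of 0.0603 to 0.131. Strn-Mlck, a muscle kinase gene of the stretchin locus, had 1, 7 and 5 in RasV12 libraries and 13, 9 and 4 in control libraries and was not called. It passed the filter through control libraries alone, as RyR did. Its last bases overlap exons of Cyp4aa1 on the other strand, which had 42, 106 and 87 in RasV12 libraries and 34, 52 and 58 in control libraries, so part of its few reads could belong to that gene.

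Msp300 (FBgn0261836; 2L, 5100877 to 5207002), a nesprin that holds muscle nuclei in place, had 372, 406 and 414 in RasV12 libraries and 253, 267 and 408 in control libraries. Only control replicate 3 reached the RasV12 range, and the log2 change was 0.39 (95% interval -0.11 to 0.90, adjusted p = 0.282).

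At the Z-disc and muscle attachments 5 of 7 tested genes fell. Actn (FBgn0000667), the alpha-actinin that cross-links thin filaments, had 25, 36 and 17 in RasV12 libraries and 104, 100 and 139 in control libraries. This was a change of -2.14 ± 0.34 (SE, adjusted p = 0.000705), and the RasV12 mean was 22.7% of control. The last 500 bases of Actn overlap exons of east on the other strand, and the sources used here do not state whether counting used strand. The gene east had 83, 109 and 52 in RasV12 libraries and 51, 54 and 79 in control libraries. Within each genotype the library with the highest value was the same for both genes, while between genotypes Actn fell and east was not called (0.37, adjusted p = 0.495). Sharing of reads between them was not tested.

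The Z-disc scaffold gene Zasp52 had 70, 73 and 53 in RasV12 libraries and 167, 152 and 127 in control libraries (-1.18 ± 0.26, SE, adjusted p = 0.00798). Its relative Zasp66 had 93, 64 and 104 in RasV12 libraries and 149, 186 and 157 in control libraries (-0.93 ± 0.27, SE, adjusted p = 0.0299), and its adjusted p was between 0.0509 and 0.139 without RasV12 replicate 1, RasV12 replicate 2, control replicate 1 or control replicate 2. Zasp67 was at 0 in all libraries. Both detected Zasp genes were thus lower in every RasV12 library.

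Of the muscle LIM protein genes, Mlp60A fell and Mlp84B was not called. Mlp60A had 378, 395 and 406 in RasV12 libraries and 978, 729 and 824 in control libraries (-1.09 ± 0.20, SE, adjusted p = 0.00234). Mlp84B had 93, 113 and 102 in RasV12 libraries and 66, 123 and 118 in control libraries, with overlapping groups and a log2 change of 0.05 (95% interval -0.58 to 0.68). The sign of that value is not stable, since it was -0.01 after scaling by library size.

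CAP, a scaffold gene of muscle attachment sites, had 63, 63 and 88 in RasV12 libraries and 114, 184 and 151 in control libraries (-1.05 ± 0.28, SE, adjusted p = 0.0213). Its adjusted p was between 0.0698 and 0.0912 without RasV12 replicate 1, RasV12 replicate 2 or control replicate 2. Lasp, for a LIM and SH3 protein of actin filaments, had 12, 11 and 30 in RasV12 libraries and 8, 11 and 12 in control libraries. Only RasV12 replicate 3 stood above the controls, and the 6 values of Lasp equal those of CG43954, a gene that shares its last bases on the same strand, so the reads of the pair cannot be told apart.

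None of the 3 calcium handling genes was called with limma, against 7.70% of all tested genes called lower and 9.04% higher. At an unadjusted p under 0.05 the count was 0, and with limma-voom it was also 0. SERCA (FBgn0263006), the pump that returns calcium to the sarcoplasmic reticulum, had 311, 327 and 382 in RasV12 libraries and 370, 390 and 312 in control libraries. The ranges nearly coincided, and the log2 change was -0.07 (95% interval -0.53 to 0.39), which leaves out a fall of the size seen in Mhc. CG2812, whose exons overlap the last bases of SERCA on the other strand, had at most 12 normalised counts in a library.

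The junctophilin gene jp, whose protein ties the plasma membrane to the reticulum, had 45, 70 and 46 in RasV12 libraries and 32, 40 and 62 in control libraries (0.28, 95% interval -0.46 to 1.02). RyR, the calcium release channel, had 9, 4 and 1 in RasV12 libraries and 14, 11 and 3 in control libraries. With so few reads the RyR interval ran from -2.63 to 0.73 and holds both no change and a change like that of Mhc.

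Of the 3 regulators, tn fell. It encodes thin, a TRIM32-like protein needed to keep sarcomeres intact, and had 38, 40 and 64 in RasV12 libraries and 77, 92 and 142 in control libraries (-1.11 ± 0.33, SE, adjusted p = 0.0334). Its adjusted p was between 0.0677 and 0.123 without RasV12 replicate 1, RasV12 replicate 2, control replicate 2 or control replicate 3. Mef2, the transcription factor that drives muscle differentiation, had 31, 32 and 45 in RasV12 libraries and 44, 65 and 75 in control libraries, and its change of -0.74 (95% interval -1.45 to -0.03) had an adjusted p of 0.15. The RNA-binding protein gene how had 25, 23 and 15 in RasV12 libraries and 14, 21 and 32 in control libraries, with no direction that held in every fit.

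The 31 genes differed among themselves in how far they changed. The log2 fold changes had an SD of 0.76 between genes, while the median standard error of a gene was 0.27. Libraries of 1 genotype were alike in the middle of this range. The genes' median log2 distance from the control mean was -1.07, -0.99 and -1.04 in RasV12 libraries and -0.13, -0.01 and 0.18 in control libraries, and 25 of the 31 lay below the control mean in each RasV12 library. Measured from the control mean, the genes ranged from -2.27 to 0.30 in RasV12 replicate 1 and from -2.02 to 0.69 in RasV12 replicate 2. In RasV12 replicate 3 they ranged from -2.66 to 1.47, where the highest value was that of Lasp.

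**Figure D2:**
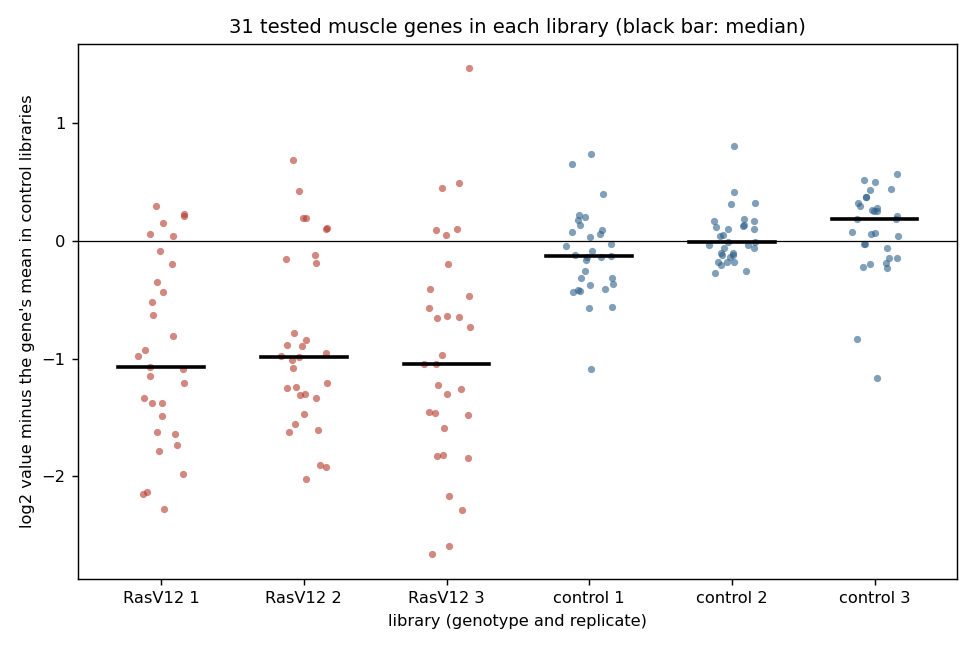
Each point is 1 of the 31 tested genes in 1 library, as its log2 value minus its mean in control libraries, and black bars are medians. The RasV12 medians lie between -1.07 and -0.99, and the control medians between -0.13 and 0.18, with a wide spread of genes in each RasV12 library.

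To test the question gene by gene, the median deviation of the 31 genes in a library was subtracted from every gene of that library, and the fit was repeated. The common change removed in this way was -1.02 on the log2 scale, or 49.4% of the control level. The remaining difference, called departure here, is zero for a gene that fell by exactly this factor. Since the centre is made from the genes themselves, the departures are relative to each other.

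By this measure 11 of the 31 genes departed from the common change: 5 fell more and 6 stayed above it. Over all 7155 genes 1.36% were called below the muscle genes' common change and 45.4% above it, beside a median log2 fold change of 0.02 between the genotypes. A departure upwards was thus common among genes in general.

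The genes that fell more were Tm2 (departure -1.28 ± 0.23, SE, adjusted p = 0.000729), Actn (-1.12 ± 0.33, adjusted p = 0.0149), up (-0.96 ± 0.24, adjusted p = 0.00624), Mlc1 (-0.90 ± 0.19, adjusted p = 0.00244) and wupA (-0.57 ± 0.21, adjusted p = 0.0372). They encode a tropomyosin, alpha-actinin, troponin T, a myosin light chain and troponin I. The departure of wupA had an adjusted p of 0.0598 to 0.164 without RasV12 replicate 1, RasV12 replicate 3, control replicate 2 or control replicate 3, and that of Actn was 0.0681 without RasV12 replicate 3.

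The genes above the common change were Lasp (departure 1.61 ± 0.50, SE, adjusted p = 0.0189), Msp300 (1.41 ± 0.23, adjusted p = 0.000346), jp (1.30 ± 0.34, adjusted p = 0.00759), TpnC47D (1.14 ± 0.27, adjusted p = 0.00452), Mlp84B (1.07 ± 0.29, adjusted p = 0.00903) and SERCA (0.95 ± 0.22, adjusted p = 0.00364). None of these 6 was called between RasV12 and control, and each of their intervals held 0 and not the common change. Without RasV12 replicate 3 the Lasp departure had an adjusted p of 0.108, and reads of Lasp cannot be told from those of CG43954. With the centre first planned, the median of the genes' levels in each library, the calls of Lasp (adjusted p = 0.0601), jp (0.0614), SERCA (0.0642) and Mlp84B (0.085) were lost, and of these 6 genes Msp300 and TpnC47D were still called. Mlc1, Tm2, TpnC47D and Msp300 were called as departures in all 19 alternative fits.

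A further 14 of the genes that fell were not called as departures, among them Mhc (departure -0.40, 95% interval -0.83 to 0.03), Mlc2 (-0.33), Mlp60A (-0.07), CAP (-0.03), Mp20 (-0.02) and TpnC73F (0.02). Mf, at -0.57, crossed the threshold without RasV12 replicate 1 (adjusted p = 0.0478) or control replicate 1 (adjusted p = 0.0211). The gene how, at 0.97, crossed it without control replicate 3 (adjusted p = 0.0366). The intervals of tmod, Strn-Mlck and RyR held both 0 and the common change, so these genes cannot be placed.

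**Figure D3:**
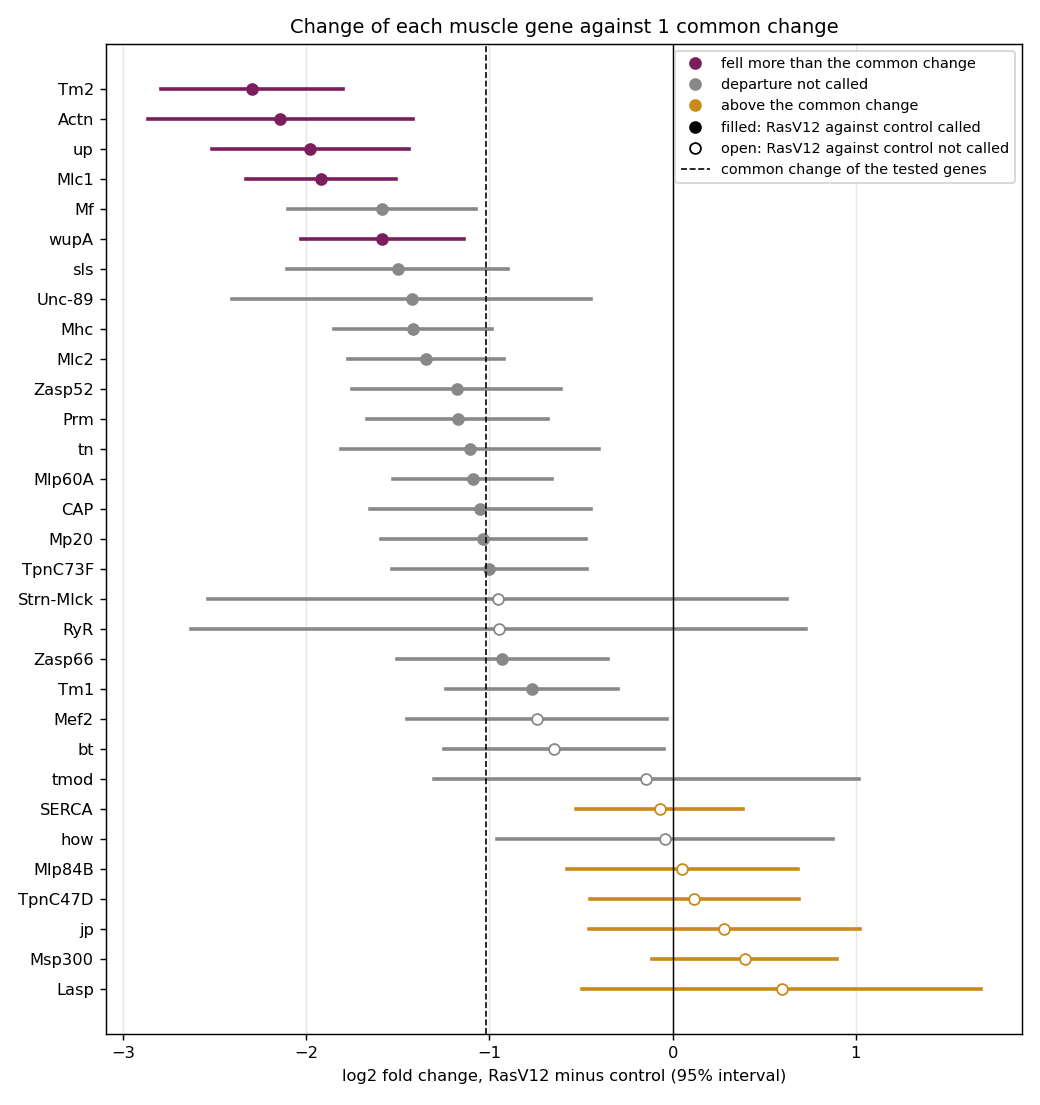
Log2 fold change of RasV12 minus control with its 95% interval for the 31 tested genes, and the common change of -1.02 (dashed) beside 0 (solid). The 5 genes in purple lie below the dashed line, the 6 in orange lie near or above 0, and filled points mark the 19 genes that fell.

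Related genes were also compared within each library, where the library's scaling cancels. Of the 11 pairs planned, 9 had both genes tested, and 5 of the 9 had ratios that did not overlap between genotypes. How often the ratios of other gene pairs separate in this way was not examined, so the count is a description only. With 3 libraries against 3 the exact two-sided permutation test cannot go below 0.1, which these 5 pairs reached, and after Benjamini-Hochberg adjustment over the 9 pairs their p was 0.18. No pair could therefore pass 0.05 in this design.

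The log2 ratio of Tm1 to Tm2 was 3.77, 2.88 and 3.46 in RasV12 libraries and 2.13, 2.01 and 1.39 in control libraries, a difference of 1.53. That of TpnC47D to TpnC73F was 0.87, 0.63 and 1.38 in RasV12 libraries and -0.02, 0.01 and -0.46 in control libraries, a difference of 1.12. For both pairs every RasV12 library lay above every control library. The ratio of Mlp60A to Mlp84B differed by -1.14, with 2.01, 1.80 and 1.98 in RasV12 libraries and 3.87, 2.56 and 2.79 in control libraries.

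The log2 ratio of sls to bt was -0.14, 0.15 and 0.39 in RasV12 libraries and 1.24, 0.85 and 0.86 in control libraries, a difference of -0.85. The light chains Mlc1 and Mlc2 differed least among these 5 pairs (-0.57). The ratios overlapped for wupA and up (exact p = 0.3), Mhc and Prm (exact p = 0.4), Zasp52 and Zasp66 (exact p = 0.5) and SERCA and RyR (exact p = 0.5).

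**Figure D4:**
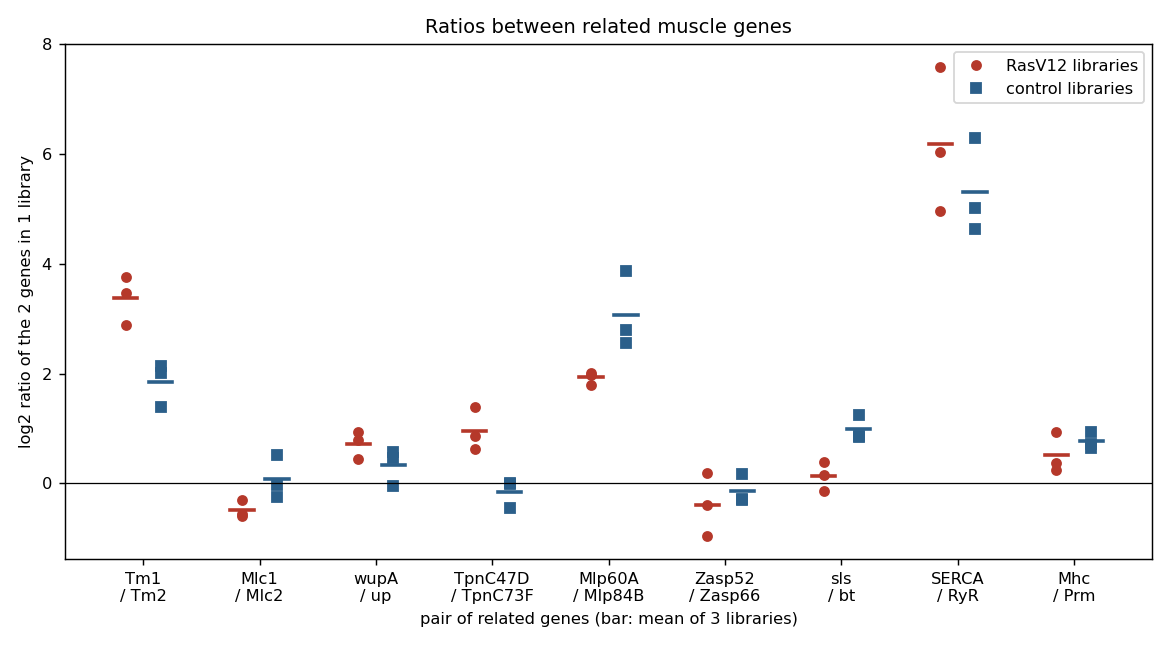
Log2 ratio of each pair of related genes in each RasV12 library (red circles) and each control library (blue squares), with bars for the means of 3 libraries. Tm1 over Tm2 and TpnC47D over TpnC73F are higher in all RasV12 libraries, and Mlp60A over Mlp84B, sls over bt and Mlc1 over Mlc2 are lower.

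Summed over the 35 genes, values came to 7160, 6535 and 6273 normalised counts in RasV12 libraries and 14644, 14745 and 15865 in control libraries. The sum was 0.658% ± 0.056 of each library in RasV12 and 1.56% ± 0.033 in control hindguts (SD, n = 3 each). The RasV12 sum was 44.1% of the control sum. These figures are not shares of muscle RNA, since reads cannot be assigned to muscle. Tm1, which also makes cytoskeletal tropomyosins, had means of 1645 in RasV12 and 2763 in control libraries. The genotypes did not overlap (exact permutation test, two-sided, p = 0.1, the smallest that 3 against 3 allows). Without Mhc, Mlc1 and Mlc2 the RasV12 sum was 48.4% of control.

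Level and gene length were set beside the size of change. Across the 31 genes Spearman's rho between mean level and log2 fold change was -0.43, and between gene length and log2 fold change 0.26, where the genes share libraries and are not independent. The 19 genes that fell had a median level of 290 normalised counts and a median length of 12453 bases, and the 12 that were not called had 48.9 normalised counts and 36202 bases. Of the genes not called, SERCA and Msp300 had control means of 357 and 309.

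A second list held 35 other genes of muscle, 34 of them analysed here, and of these 22 were tested. In RasV12 hindguts 7 of the 22 fell and 2 rose, and the median log2 fold change was -0.36. Without RasV12 replicate 2 the numbers were 4 and 0. Over all tested genes 7.70% were called lower and 9.04% higher, and 2 of 22 is near the latter share. The muscle actins Act57B (950, 1125 and 1194 in RasV12 libraries and 2246, 1805 and 2350 in control libraries) and Act87E (142, 78 and 61 in RasV12 libraries and 200, 269 and 443 in control libraries) changed by -0.97 and -1.70 (adjusted p = 0.00417 and 0.00448).

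The largest fall of that list was in bap, which encodes the homeodomain factor bagpipe of the visceral mesoderm. It had 11, 12 and 10 in RasV12 libraries and 62, 49 and 39 in control libraries, with no overlap and a change of -2.07 ± 0.37 (SE, adjusted p = 0.0019). The fork head factor gene bin, also of the visceral mesoderm, was low, with 1, 0 and 0 in RasV12 libraries and 3, 2 and 5 in control libraries and was not tested.

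Calx, a sodium-calcium exchanger gene, had 24, 28 and 21 in RasV12 libraries and 60, 60 and 75 in control libraries (-1.38 ± 0.32, SE, adjusted p = 0.00882). CG9416 had 4, 3 and 2 in RasV12 libraries and 10, 26 and 12 in control libraries. It passed the filter through control libraries alone and was near the floor of 3 reads in RasV12 libraries. The titin-like zormin (-1.19, adjusted p = 0.0256), the LIM protein gene Lmpt (-0.97, adjusted p = 0.0252) and CG9416 (-2.003, adjusted p = 0.0374) also fell. Their calls were lost on leaving out 1 library: zormin without RasV12 replicate 1, RasV12 replicate 2 or control replicate 2 (adjusted p = 0.0674 to 0.112), Lmpt without RasV12 replicate 2, RasV12 replicate 3 or control replicate 1 (0.0628 to 0.121), and CG9416 without any one of the 6 (0.0519 to 0.194).

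The 2 genes that rose encode RNA-binding proteins. The splicing factor gene mbl had 59, 77 and 57 in RasV12 libraries and 32, 29 and 35 in control libraries (0.98 ± 0.31, SE, adjusted p = 0.0432), and hoip had 26, 55 and 49 in RasV12 libraries and 15, 17 and 15 in control libraries (1.35 ± 0.39, SE, adjusted p = 0.0307). Neither is specific to muscle. The adjusted p of mbl was 0.0748 to 0.175 without any 1 library but control replicate 3, and that of hoip 0.057 to 0.149 without RasV12 replicate 2, RasV12 replicate 3, control replicate 1 or control replicate 2.

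Among the other 13 genes, arginine kinase Argk1 had 2065, 1671 and 1400 in RasV12 libraries and 2101, 2359 and 2618 in control libraries and was not called (-0.47, adjusted p = 0.131). The calcium entry genes Stim and Orai changed by -0.32 and 0.33, the calcium release channel gene Itpr by 0.28, and the dystrophin and dystroglycan genes Dys and Dg by 0.03 and 0.46, none of them called. Of these 5 genes, the genotypes overlapped for all but Stim, and each interval held 0, whereas the Argk1 genotypes did not overlap and its interval ran from -0.91 to -0.04.

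Markers of other tissues gave the setting. The 4 flight muscle markers summed to between 1 and 6 in RasV12 libraries and 0 in each control library. TpnC4 (2, 3 and 1) and Act88F (1, 3 and 0) gave those few in RasV12 libraries, and fln and TpnC41C were at 0 throughout. Of 5 hindgut epithelium markers byn, fkh and otp fell (otp not without RasV12 replicate 2 or control replicate 1, adjusted p up to 0.0841) and drm rose, and their sum was 526 to 628 in RasV12 libraries and 752 to 1048 in control libraries. The brachyenteron gene byn, whose enhancer drives the Gal4, had 60, 144 and 97 in RasV12 libraries and 299, 283 and 450 in control libraries.

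Tracheal markers summed to 86 to 115 in RasV12 libraries and 29 to 53 in control libraries. Of 4 tested markers 2, btl and uif, were called higher, beside 9.04% of all tested genes. The markers verm (-0.15) and serp (-1.30) were not called. At 0 in each RasV12 library and at most 3 in a control library, trh was not tested. Fat body markers summed to 2319 to 4435 in RasV12 libraries and 4015 to 10600 in control libraries, with Fbp1 at 0, Yp1 and Yp2 lower and to higher. The Yp1 call was lost without RasV12 replicate 1 or RasV12 replicate 2 (adjusted p up to 0.0708) and the Yp2 call without RasV12 replicate 1, RasV12 replicate 2 or control replicate 2 (up to 0.112). Hemocyte markers summed to at most 8 in RasV12 and 9 in control libraries. Neuron markers summed to 67 to 152 in RasV12 libraries and 45 to 105 in control libraries, mostly from Syx1A and elav. Syt1 was at 0, and brp and para had at most 2 and 5 in a library. Glia markers summed to 205 to 413 in RasV12 libraries and 470 to 779 in control libraries, mostly from Gs2, with repo at 0. Gs2 was called lower, though not without RasV12 replicate 2 (adjusted p = 0.0566), while moody had 9, 16 and 12 in RasV12 libraries and 3, 4 and 1 in control libraries without a call (1.93, adjusted p = 0.0572). Midgut markers summed to 110 to 206 in RasV12 libraries and 14 to 139 in control libraries, with 4 of 8 at 0. Malpighian tubule markers, nearly all of the sum from Irk2, came to 1441 to 2832 in RasV12 libraries and 2431 to 3900 in control libraries. Of that list Uro, CapaR and NtR had at most 3 normalised counts in any library, so the sum says little about tubule tissue. The part of these other cells in the muscle result was not tested.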

How the data were processed

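Per the labels and the methods of the study, RNA of 100 hindguts per library was made into 3′ end libraries (QuantSeq), sequenced on an Ion Proton instrument and aligned to dm6 with HISAT2 and then Bowtie2, and the authors normalised gene counts with the DESeq method of metaseqR2. For metaseqR2 the paper names the utr parameter. Tool versions, other counting rules and strand use are not given in the sources used here. The deposited values are a normalised signal: whole numbers, equal to reads times 1 factor per library, rounded (inferred scale factors of 0.711, 1.019 and 0.736 for RasV12 replicates 1 to 3, and of 1.406, 0.889 and 1.338 for control replicates 1 to 3). Reads could not be recovered exactly, so no count model was used.

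Genes were tested with limma 3.58.1 in R 4.3.3 on log2(value + 1) with a variance trend, two-sided, with Benjamini-Hochberg adjustment over all 7155 genes above 9, the median of all values of detected genes, in at least 1 library. The same fit on 3 libraries per genotype was tested on simulated data. For departures, each library was centred on the median of the 31 genes' deviations from their own means. The centre first planned, the median of their levels, gave false departures in simulated data and is kept as an alternative. Those data gave most muscle genes 1 shared change, a simpler setting than the spread between genes seen here. Ratios and sums were tested by exact permutation (scipy 1.17.1). All members are described, in 6 role groups; of other muscle genes, those called and those needed to account for the list were named. The members, lists and tests were chosen with earlier results of these data known. Symbols, positions and overlaps came from Ensembl release 115 for 17520 of 17617 identifiers. Alternatives were other pseudocounts (0.5 and 5), scalings, filters, variance models and centres, a replicate block and leaving out each library. Intervals cover the spread between libraries, and floors of 3 reads cover counting error only. Sequences of the genes were not used here.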

Additional observations from a re-analysis of the deposited data

How the results depend on the processing

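The number of muscle genes that fell was 17 to 19 under both pseudocounts, all scalings, both filters, limma-voom and the replicate block, and none was called higher in any of the 16 alternatives. It was 10 without a variance trend, and 12 to 17 on leaving out 1 library, lowest without RasV12 replicate 2. The median log2 change of the tested muscle genes was -1.10 after scaling by library size and -1.09 by upper quartiles, and -1.06 to -1.01 on leaving out 1 library. The RasV12 sum was 48.4% of control without Mhc, Mlc2 and Mlc1. Departures numbered 8 to 13: 9 without a variance trend, 10 with the replicate block, 8 to 12 on leaving out 1 library, and 8 with the planned centre, the median of levels, which was set aside after the simulation, a choice made after seeing the data. That centre lost Lasp, Mlp84B, SERCA and jp and added Mf, so 2 departures lay above the common change and 6 below. Of the other muscle genes, 3 fell and 0 rose without a variance trend; 1 rose with library size, upper quartiles, no filter or the replicate block; and 4 to 6 fell and 0 to 2 rose on leaving out 1 library. Signs turned for genes near 0: TpnC47D between -0.070 and 0.27, tmod between -0.69 and 0.26, how between -0.32 and 0.25, and Mlp84B between -0.23 and 0.21 on leaving out 1 library, with Mlp84B at -0.0091 by library size and -0.0047 by upper quartiles. No other sign changed among the 31 genes.

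Replicate numbers did not pair the libraries (correlations of deviations of -0.05, 0.00 and -0.01 for numbers 1 to 3), so the replicate block, with 17 genes that fell, is given here only. At about 686080 to 1402435 reads per library, genes under about 10 normalised counts, such as RyR and Strn-Mlck, could not be resolved.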
